A study of Mus musculus with 40 samples.

Results

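The step from day 12 to day 18 was measured in 4 RNA sequencing libraries of mouse embryonic stem cells, 2 of day 12 and 2 of day 18, taken by their labels from a time course of 10 libraries. The series holds 34 RNA libraries among 40 samples. The cells are E14tg2a, an established embryonic stem cell line grown in GMEM with serum and leukaemia inhibitory factor. All 5 groups of the time course (days 0, 3, 9, 12 and 18, 2 libraries each) have the genotype CtbpDKO, a double knockout of Ctbp1 and Ctbp2, and all carry the word Dox in their title without a statement of what was given or when it was withdrawn. A second table, called the genotype table here, supplied 2 libraries each of WT, CtbpDKO and Ctbp_DuxTKO (Ctbp and Dux knockout, called Ctbp-Dux TKO below) E14tg2a cells, whose labels carry no Dox and no time. That table also holds 2 libraries each of DuxKO, Dppa2KO and DKO_Dppa2 E14tg2a cells, which entered its fit but are not compared here. The titles of DKO_Dppa2 read Dppa2_DuxTKO instead. The labels do not say how many clones each genotype stands for or whether the libraries of a group came from separate cultures, so p-values measure the spread between libraries, which may be technical.

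CtBP proteins are transcriptional corepressors that bring histone-modifying enzymes to target genes. A small share of embryonic stem cells passes through a state that resembles the 2-cell embryo, in which the transcription factor Dux switches on genes such as the Zscan4 family. Embryonic stem cells can also turn towards primitive endoderm, the extraembryonic lineage that lays down a basement membrane of laminin and collagen IV and takes up nutrients through the cubilin receptor.

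The targeted genes were examined first. Ctbp1 had 0 counts in both day 12 libraries and 3 and 4 counts in the day 18 libraries. Ctbp2 had 866 and 1268 counts on day 12 and 926 and 1646 on day 18, which is 47.1 ± 3.30 and 53.6 ± 1.64 counts per 1000000 of scaled library size (CPM; mean ± SD, n = 2). The libraries of the 2 days did not overlap, but the log2 fold change of 0.19 (SE 0.105) did not pass the test (adjusted p = 0.504, edgeR quasi-likelihood test). On days 3 and 9 the gene stood far higher, at 11119 and 11231 counts and at 8466 and 6774 counts. Its RNA was also counted on day 0, at 1184 and 1328 counts, so a low level on days 12 and 18 is a return to the level before the rise and not a loss of all counts.

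Total counts of the 4 libraries were 16674526 and 27172319 on day 12 and 18097104 and 30169626 on day 18. Markers of embryonic stem cells were high on both days: Pou5f1 had 686 ± 23.3 CPM on day 12 and 689 ± 7.93 CPM on day 18, and Sox2, Zfp42, Esrrb and Nanog did not pass the test either (adjusted p = 0.709, 0.453, 0.386 and 0.325). Of the fibroblast markers that feeder cells would bring, 8 of 16 had enough counts to be tested and 0 of 8 passed, with a summed level of 102 and 111 CPM on day 12 and 123 and 110 CPM on day 18. Decorin (Dcn) was at 0 in all 4 libraries.

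Between day 12 and day 18, 132 of 20612 tested genes rose (0.64%) and 37 fell (0.18%). At least a 2-fold change was seen for 75 of the risen and 14 of the fallen genes, and the median log2 fold change over all tested genes was -0.0013. Among the genes that rose were 16 of the 2-cell, 10 of the primitive endoderm and 5 of the germline list, and among those that fell were 3 of the mesenchymal list. In counts of named genes, named means chosen by the rule given with the processing. Called genes mentioned beyond that rule, such as Col4a1 and Sparc, are not among the 49 followed below. The count rests on both libraries of each day: with 1 library left out it was 38 without day 12 replicate 1, 45 without day 12 replicate 2, 66 without day 18 replicate 1 and 213 without day 18 replicate 2. Of the 49 genes named here that passed, 13 kept the call whichever of the 4 libraries was left out and 25 lost it in 1 to 3 of the 4 fits. The other 11 lost it in every one: Usp17ld, Nxf7, Hnf4a, Lgals3, Lmna, Tbc1d9, Zfp608, Ajm1, Pax6, Dapp1 and Plk2.

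**Figure D1:**
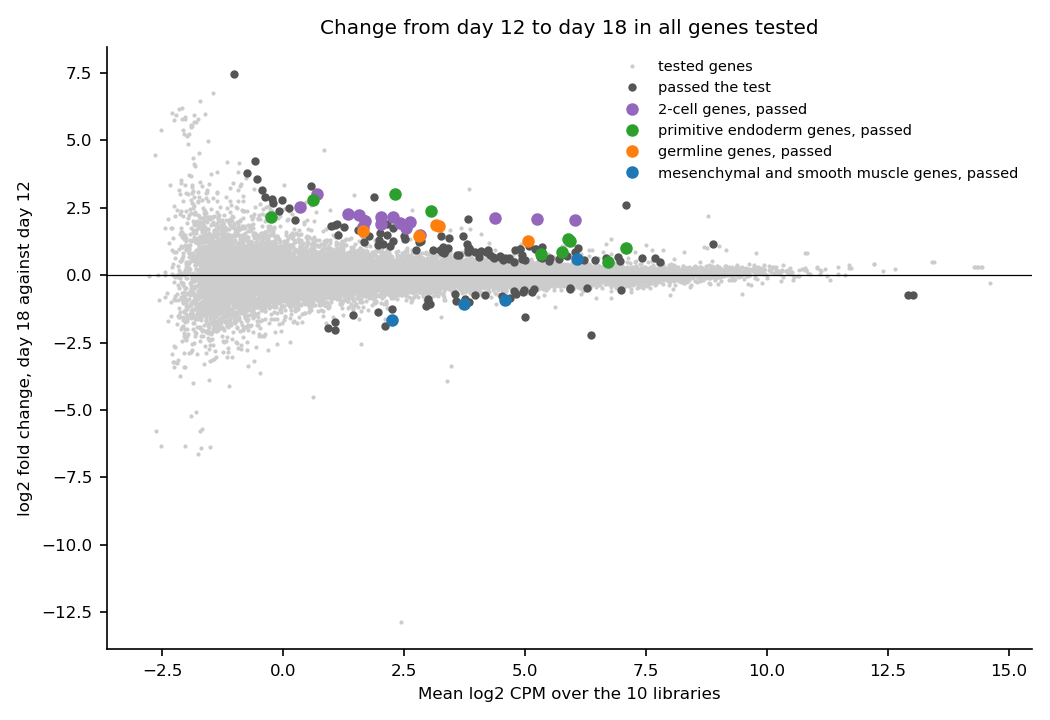
Each point is 1 of 20612 tested genes, with its mean log2 CPM over the 10 libraries on the x axis and its log2 fold change of day 18 against day 12 on the y axis. Dark points passed the test, and coloured points are the risen 2-cell (16), primitive endoderm (10) and germline (5) genes and the mesenchymal and smooth muscle genes that passed in either direction (4).

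The 2-cell genes formed the most numerous listed group: 16 of 52 tested rose and 0 fell, with a median log2 fold change of 1.90 over all 52. Zscan4c, a DNA-binding protein gene of the 2-cell embryo linked to telomere maintenance, had 40 and 70 counts on day 12 and 162 and 291 on day 18. Both day 18 libraries stood above both day 12 libraries, and the level went from 2.37 ± 0.133 to 9.42 ± 0.359 CPM, a 3.95-fold rise (log2 1.98, SE 0.236, adjusted p = 0.00147). Its relatives moved by similar amounts: the log2 fold change was 1.75 for Zscan4f (adjusted p = 0.0174), 2.27 for Zscan4e (0.0436), 2.16 for Zscan4-ps2 (0.00812) and 3.00 for Zscan4-ps1 (0.0157). With 1 library left out, Zscan4f, Zscan4e and Zscan4-ps1 kept their call in 1 of 4 fits, with adjusted p up to 0.12, 0.331 and 0.152. Zscan4d had 2 and 22 counts on day 12 and 37 and 115 on day 18, and its log2 value of 2.59 did not pass (adjusted p = 0.198).

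Among the more abundant 2-cell genes, Gm21304 had 356 and 754 counts on day 12 and 1411 and 3437 on day 18, a 4.13-fold rise (log2 2.05, SE 0.286, adjusted p = 0.00378). Its neighbour Gm20765 had 101 and 228 counts on day 12 and 469 and 1031 on day 18 (log2 2.12, adjusted p = 0.00285). Gm21761, on another chromosome, went from 33 and 66 counts to 134 and 261 (log2 1.94, adjusted p = 0.00338). The deubiquitinase genes Usp17ld and Usp17le, of another repeated family, rose by 2.51 and 2.14 on the log2 scale (adjusted p = 0.0342 and 0.0116). With 1 library left out, Usp17ld kept its call in 0 of 4 fits and Usp17le in 1 of 4, with adjusted p up to 0.288 and 0.154.

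Dux itself was counted as Duxf3, with 5 and 7 counts on day 12 and 29 and 20 on day 18. The libraries did not overlap, but at these low counts the log2 value of 2.07 (SE 0.738) did not pass the test (adjusted p = 0.262). Of the genes listed as regulators of the 2-cell state, 0 of 34 passed in either direction, and their median log2 fold change was 0.01. Dppa2, which acts upstream of Dux, stood at 78.3 ± 3.13 CPM on day 12 and 91.0 ± 0.280 CPM on day 18 (log2 0.22, adjusted p = 0.394). Pramel7, a gene of the preimplantation embryo, had 26 and 42 counts on day 12 and 18 and 53 on day 18, libraries that overlapped (log2 -0.07, adjusted p = 0.978), and 0 of 7 tested Pramel genes passed.

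The 2-cell count depended on single libraries: 16 became 1 without day 12 replicate 1, 8 without day 12 replicate 2, 12 without day 18 replicate 1 and 7 without day 18 replicate 2. The gene that kept its call in all 4 of these fits among those named was Zscan4c, with log2 values from 1.93 to 2.06. All 52 tested members had a value above 0 and 45 had libraries that did not overlap, where 22.1% of all tested genes had day 18 libraries above day 12 libraries in the same way. Members of these families share long stretches of sequence, and how reads that match several copies were counted is not given in the sources used here. Some features of the table hold nearly the same counts: Ccdc107 had between 96.9% and 98.1% of the counts of its neighbour Rmrp, a small RNA gene, in the 10 time course libraries. Counts of close copies are therefore uncertain, and the members may share reads.

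The promoter windows of this group are shown because its members moved together and several are copies of each other. Windows of 300 bases, from 250 before to 50 after the listed start, came from RefSeq on GRCm38.p6, which is the mm10 assembly. They were searched on both strands for the letters GATTNAATC, the core bound by Dux, and AGATAA, read by Gata factors. The E-box letters CACGTG, which read alike on both strands, were searched as well, and so was the E-box form with the letters CACCTG. Capitals mark every match of these 4, and none of the 4 contains another. The windows lie at chr10:104168265-104168564 on the plus strand (Gm21304), chr6:136327289-136327588 on the plus strand (Eif4a3l1), chr13:119913419-119913718 on the minus strand (Gm21761) and chr7:11005495-11005794 on the plus strand (Zscan4c).
Gm21304: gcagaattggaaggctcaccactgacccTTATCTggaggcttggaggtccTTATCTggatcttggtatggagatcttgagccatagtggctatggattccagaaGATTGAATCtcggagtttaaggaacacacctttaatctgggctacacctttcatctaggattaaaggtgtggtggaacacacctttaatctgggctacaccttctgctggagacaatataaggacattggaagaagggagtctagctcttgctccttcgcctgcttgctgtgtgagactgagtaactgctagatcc
Eif4a3l1: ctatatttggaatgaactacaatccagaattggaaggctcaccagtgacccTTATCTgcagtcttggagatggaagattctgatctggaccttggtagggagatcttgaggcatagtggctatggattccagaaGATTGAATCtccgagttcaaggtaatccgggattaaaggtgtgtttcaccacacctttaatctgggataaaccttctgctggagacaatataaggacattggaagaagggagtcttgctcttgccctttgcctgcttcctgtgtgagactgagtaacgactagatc
Gm21761: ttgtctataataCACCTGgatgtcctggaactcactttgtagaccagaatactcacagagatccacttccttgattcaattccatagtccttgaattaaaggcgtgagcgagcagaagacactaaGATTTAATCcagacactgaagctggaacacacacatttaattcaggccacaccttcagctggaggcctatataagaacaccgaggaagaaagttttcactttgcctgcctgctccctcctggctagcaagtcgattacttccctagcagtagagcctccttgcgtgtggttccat
Zscan4c: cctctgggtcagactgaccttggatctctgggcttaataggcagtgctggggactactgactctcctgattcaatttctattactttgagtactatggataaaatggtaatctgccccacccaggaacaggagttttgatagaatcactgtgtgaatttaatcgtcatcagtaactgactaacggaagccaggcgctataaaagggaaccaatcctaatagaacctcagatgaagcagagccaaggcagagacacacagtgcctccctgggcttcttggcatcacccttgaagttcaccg

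The letters GATTNAATC stood in 27 of 12310 windows of tested genes (0.219%) and in 7 of 83 windows of risen genes (8.43%), with 0 of 24 among the fallen. Those 7 are not 7 separate sequences. The windows of Gm20765, Gm21293, Gm21312 and Gm4340 on chromosome 10 differ from that of Gm21304 at 0, 0, 1 and 1 of 300 positions, and in all 5 the match begins at position 105. Eif4a3l1 on chromosome 6, a relative of an RNA helicase gene, has the match at position 135 and had 48 and 42 counts on day 12 and 115 and 257 on day 18 (log2 1.89, adjusted p = 0.00725). The window of Eif4a3l1 printed above shares long stretches with that of Gm21304 at shifted positions, among them the bases around the match. It is therefore not a separate sequence either. Gm21761 on chromosome 13 has the match at position 126. No match was found in the Zscan4c window, which shows no more than that these letters are not in these 300 bases. The risen 2-cell genes with a window had a median of 2 CpG dinucleotides in it, against 20 over all windows, in 7 of 16 genes that could be matched. The copies Gm21304, Gm20765 and Gm4340 are among these 7 with 2 CpG each, so the median is the value of copied sequence.

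The primitive endoderm genes were the second most numerous group. Of 28 tested members 10 rose, 0 fell, and the median log2 value was 0.70. Cubn encodes cubilin, the receptor that takes up vitamin-binding proteins in the visceral endoderm. It had 84 and 96 counts on day 12 and 606 and 935 on day 18, the highest values among the 10 libraries, where the others held between 23 and 107. The level went from 4.09 ± 0.993 to 32.7 ± 2.27 CPM, an 8.10-fold rise (log2 3.02, SE 0.250, adjusted p = 8.53e-05). Dab2, the adaptor that carries cubilin into the cell, had 120 and 179 counts on day 12 and 615 and 1028 on day 18 (5.25-fold, log2 2.39, SE 0.201, adjusted p = 8.53e-05). The partners of cubilin on the list, the receptor Lrp2 and the membrane anchor Amn, had log2 values of 0.41 and 0.62 and did not pass (adjusted p = 0.12 and 0.424).

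Of the list's laminin and collagen IV genes, 4 of 5 rose. Lama1, the laminin chain that starts the assembly of the membrane, had 923 and 1566 counts on day 12 and 2514 and 3907 on day 18, or 53.9 ± 1.83 and 136 ± 8.75 CPM (2.52-fold, log2 1.33, SE 0.114, adjusted p = 8.53e-05). The collagen IV genes Col4a1 and Col4a2, which lie head to head on chromosome 8, rose by 0.99 and 1.28 on the log2 scale (adjusted p = 0.00163 and 0.00128). Lamb1 rose by 0.84 (adjusted p = 0.00889) and Sparc, a collagen-binding protein gene, by 0.48 (adjusted p = 0.0465). Lamc1, the third laminin chain, had a log2 value of 0.26 (adjusted p = 0.406).

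The remaining risers of the list were Srgn, Hnf4a and Rhox5. Srgn, which encodes the proteoglycan serglycin, had 22 and 36 counts on day 12 and 143 and 278 on day 18 (log2 2.78, adjusted p = 0.00128). Hnf4a, a transcription factor of the visceral endoderm, had 12 and 21 counts against 69 and 76 (log2 2.15, adjusted p = 0.0474), and it lost its call whichever of the 4 libraries was left out. Rhox5, an X-linked homeobox gene that the trophoblast list also holds, rose by 0.78 on the log2 scale (adjusted p = 0.0026).

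The transcription factors that define the primitive endoderm did not pass the test. Gata6 had 86 and 161 counts on day 12 and 103 and 126 on day 18, libraries that overlapped (log2 -0.09, SE 0.271, adjusted p = 0.935). Gata4 had 143 and 261 counts against 287 and 407 (log2 0.77, SE 0.203, adjusted p = 0.117), and Sox17 had 44 and 69 against 97 and 109 (log2 0.87, SE 0.437, adjusted p = 0.453). The later endoderm genes were near or at 0: Afp had no count in any of the 4 libraries, and Ttr had 0 and 0 on day 12 and 10 and 13 on day 18. The summed level of the 28 tested members was 1050 and 1090 CPM on day 12 and 1730 and 1580 CPM on day 18. In bulk RNA a larger share of endoderm-like cells and more RNA per cell cannot be told apart. Without day 12 replicate 1 or replicate 2, 6 genes of the list rose, and without day 18 replicate 1 or replicate 2, 7 and 8.

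The promoter window of Dab2 is shown because it holds 1 of the Gata matches among the risen primitive endoderm genes, and lies at chr15:6299539-6299838 on the plus strand.
Dab2: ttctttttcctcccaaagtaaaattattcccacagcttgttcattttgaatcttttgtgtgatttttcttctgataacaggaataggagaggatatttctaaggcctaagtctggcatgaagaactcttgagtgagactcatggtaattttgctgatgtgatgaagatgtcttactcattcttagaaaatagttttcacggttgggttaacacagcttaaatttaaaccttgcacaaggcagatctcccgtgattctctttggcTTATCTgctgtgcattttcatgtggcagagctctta

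The letters AGATAA stood in 781 of 12310 windows (6.34%), in 11 of 83 windows of risen genes (13.3%) and in 2 of 9 windows of risen primitive endoderm genes, those of Dab2 and Hnf4a. The 11 are not 11 separate sequences. The nearly identical windows of Gm21304, Gm20765, Gm21293, Gm21312 and Gm4340 on chromosome 10 are among them, with 2 matches each, and so is that of Eif4a3l1. The 13.3% is therefore raised by copies and is not a share of separate windows.

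**Figure D2:**
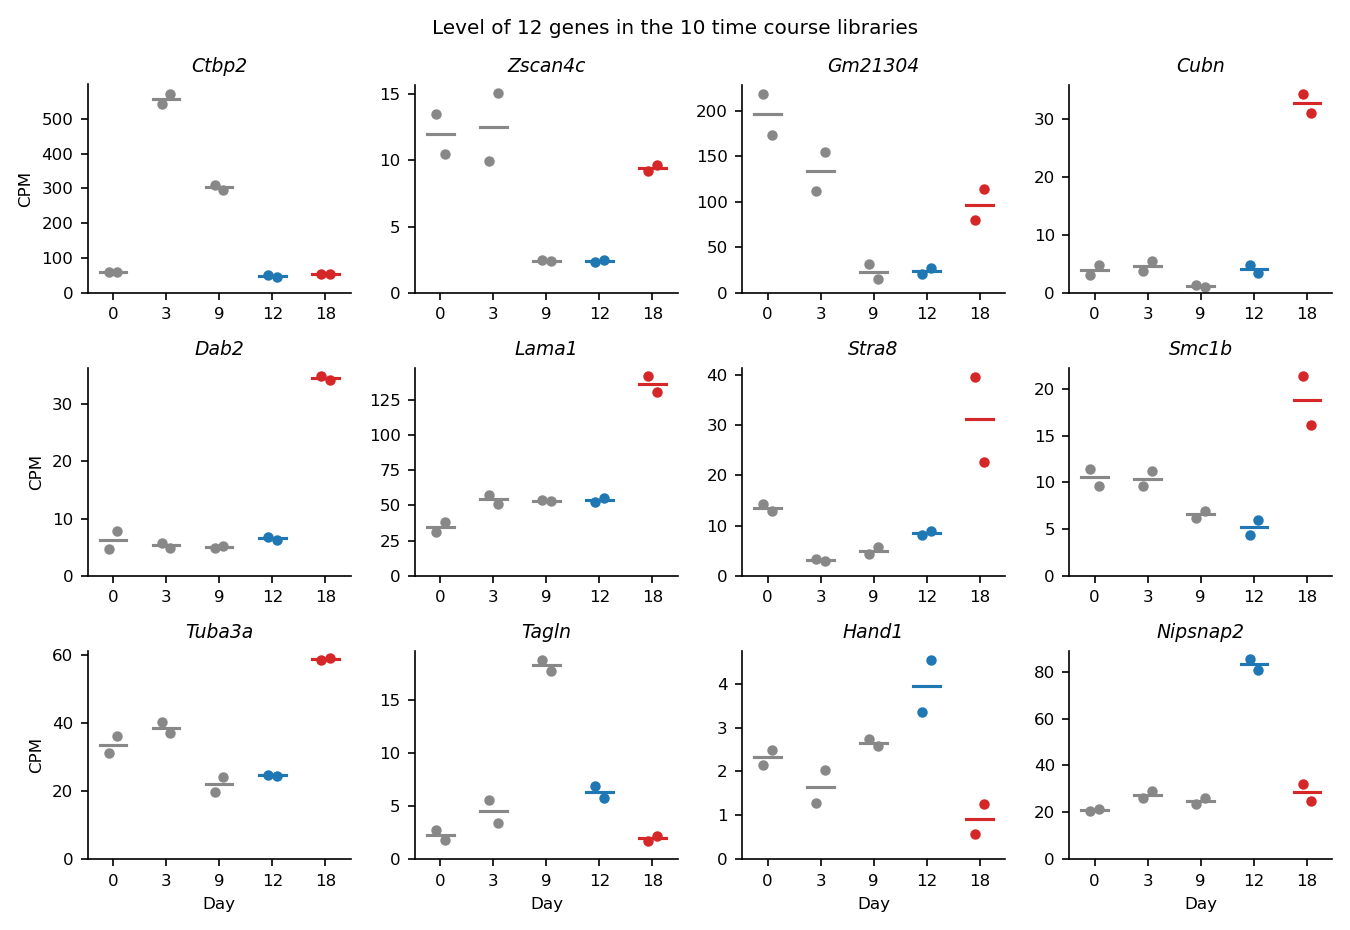
The level of 12 genes in CPM (y axis, from 0) is drawn for each library of days 0, 3, 9, 12 and 18 (x axis, days equally spaced), with points for libraries and bars for the mean of 2. Ctbp2 stands low on both day 12 (blue) and day 18 (red), Zscan4c and Gm21304 return part or most of the way to day 0, and Cubn, Dab2 and Lama1 stand above every other day on day 18.

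Germline genes rose in small number: 5 of 37 tested rose and 0 fell, and the median log2 fold change of the list was 0.22. Stra8, which starts meiosis in response to retinoic acid, had 143 and 253 counts on day 12 and 699 and 683 on day 18, or 8.54 ± 0.543 and 31.1 ± 11.9 CPM (3.62-fold, log2 1.85, SE 0.227, adjusted p = 0.00163). Smc1b, the meiotic cohesin subunit, had 77 and 169 counts on day 12 and 379 and 483 on day 18 (log2 1.83, SE 0.202, adjusted p = 0.000938). Sohlh2, a transcription factor gene of early germ cells, had 86 and 137 against 258 and 358 counts (log2 1.44, adjusted p = 0.0026). In each of these genes the day 18 libraries stood above those of day 12. The testis tubulin genes Tuba3a and Tuba3b rose by 1.26 and 1.65 on the log2 scale (adjusted p = 0.000296 and 0.0426); they are close copies whose reads may be shared. Dazl, an RNA-binding protein gene of germ cells, had 24 and 44 counts against 60 and 79 and did not pass (log2 1.02, adjusted p = 0.261). Over the whole list, 25 of 37 genes had a value above 0, and 18 had day 18 libraries above and 3 below those of day 12, where 22.1% and 21.9% of all tested genes did.

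Of 20 tested Nodal and Bmp target genes, 2 rose and 1 fell. Lefty1 and Lefty2, the secreted Nodal inhibitors that lie next to each other on chromosome 1, rose by 1.07 and 1.03 on the log2 scale (adjusted p = 0.0075 and 0.00253), while Nodal itself had a value of 0.25 (adjusted p = 0.317). The gene of this list that fell was Msx1. Fgf4, the growth factor that acts on primitive endoderm precursors, rose by 0.57 (adjusted p = 0.0184) and was the 1 riser among 17 naive pluripotency genes. Zic2 rose by 0.98 (adjusted p = 0.00405), as 1 of 20 core and formative pluripotency genes. Dnmt3l, the cofactor of de novo DNA methylation, went from 96.0 ± 4.24 to 151 ± 21.7 CPM (log2 0.66, adjusted p = 0.0206), as 1 of 12 DNA methylation genes. Fgf4 and Dnmt3l kept their call in 1 of 4 fits with 1 library left out, with adjusted p up to 0.187 and 0.205. Dnmt1 and Uhrf1, which maintain methylation, had log2 values of 0.00 and -0.03 (adjusted p = 0.998 and 0.952).

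Further risers, within and outside the lists, were of varied kinds. Bc1, a short noncoding RNA known from neurons and germ cells, had 25 and 60 counts on day 12 and 222 and 426 on day 18 (7.38-fold, log2 2.88, SE 0.381, adjusted p = 0.0026). Catsperz, a subunit gene of the sperm calcium channel, rose by 2.09 (adjusted p = 0.0026) and Nxf7, an X-linked RNA export factor gene, by 2.38 (adjusted p = 0.0434). Ctsl, which encodes the lysosomal protease cathepsin L, rose by 1.01 (adjusted p = 0.00424). Dsp of the epithelial list, Lmna of the mesenchymal list and Lgals3 of the trophoblast list rose by 0.61, 0.59 and 0.64 on the log2 scale (adjusted p = 0.039, 0.029 and 0.0426). Nxf7, Lgals3 and Lmna kept their call in 0 of 4 fits with 1 library left out, with adjusted p up to 0.362, 0.386 and 0.307, and Dsp in 1 of 4.

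Fallen genes were fewer. Of 23 tested mesenchymal and smooth muscle genes 3 fell and 1 rose, with a median log2 fold change of -0.24. The summed level of the 23 was 1030 and 1030 CPM on day 12 and 1180 and 1150 CPM on day 18, so the sum did not fall. Tagln, an actin-binding protein of smooth muscle, had 121 and 164 counts on day 12 and 30 and 66 on day 18 (log2 -1.67, SE 0.274, adjusted p = 0.0109). Cdh2, which encodes N-cadherin, had 291 and 473 against 119 and 266 counts (log2 -1.08, adjusted p = 0.00391), and Ccn2, a target of Yap signalling, had 632 and 942 against 310 and 579 (log2 -0.91, adjusted p = 0.0026). Vim and Fn1, the vimentin and fibronectin genes, had log2 values of 0.21 and 0.32 and did not pass (adjusted p = 0.582 and 0.344).

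Of 15 tested neural and mesoderm markers, 2 fell and 0 rose, namely Hand1 and Pax6, and the median log2 value was -0.42. Hand1, a transcription factor gene of trophoblast and mesoderm, had 59 and 129 counts on day 12 and 10 and 38 on day 18 (log2 -2.05, SE 0.388, adjusted p = 0.0276). Pax6, which directs eye and brain development, had 73 and 102 against 26 and 46 (log2 -1.36, adjusted p = 0.0342). Msx1, a homeobox gene that responds to Bmp, had 36 and 77 against 8 and 22 (log2 -1.96, adjusted p = 0.0284). With 1 library left out, Pax6 kept its call in 0 of 4 fits, with adjusted p up to 0.221, and Hand1 and Msx1 in 1 of 4. Nipsnap2, a mitochondrial protein gene, had the lowest adjusted p of the named fallen genes. It had 1501 and 2286 counts on day 12 and 568 and 751 on day 18 (log2 -1.55, SE 0.128, adjusted p = 8.53e-05). On days 0 to 9 it had between 409 and 642 counts in each library, so the day 12 libraries were the high ones.

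**Figure D3:**
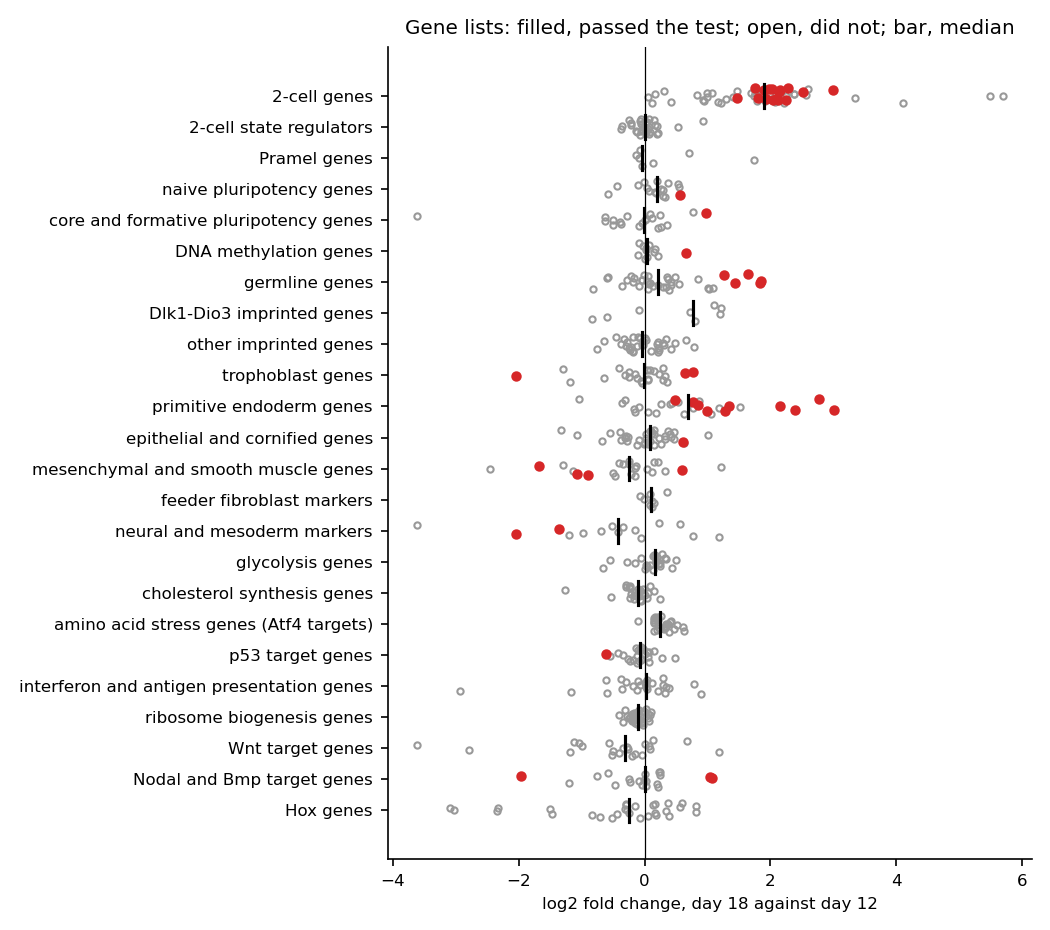
Each circle is 1 tested gene of 24 lists, with its log2 fold change of day 18 against day 12 on the x axis. Filled circles passed the test and the bar is the list's median, which was 1.90 for the 2-cell genes and 0.70 for the primitive endoderm genes.

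Of the 24 lists, 12 had no member past the test in either direction: the fibroblast markers, the 2-cell state regulators and the Pramel, Dlk1-Dio3 imprinted, other imprinted, glycolysis, cholesterol synthesis, Atf4 target, interferon and antigen presentation, ribosome biogenesis, Wnt target and Hox genes. Among the imprinted genes, Meg3 of the Dlk1-Dio3 cluster had 19 and 18 counts on day 12 and 38 and 52 on day 18, a log2 value of 1.20 that did not pass (adjusted p = 0.373). The p53 target Plk2 fell by 0.61 on the log2 scale (adjusted p = 0.0342) and lost its call whichever library was left out (adjusted p up to 0.315).

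Where the risen genes stood earlier in the course was read from day 9 against day 0, which compares none of the 4 libraries. Its calls come from the same fit, however, and share the filter and the estimate of spread with those libraries. The 2 sets of calls are therefore not fully independent. In that comparison 743 of all tested genes were higher on day 9 (3.6%) and 769 lower (3.73%). Of the 132 genes that rose after day 12, 83 (62.9%) were lower on day 9 and 6 (4.55%) higher, and their median log2 change was -1.05. These 83 are 10.8% of the 769. Of the 37 genes that fell after day 12, 14 (37.8%) were higher on day 9, which is 1.88% of the 743, and 0 were lower. Tagln and Prtg, a cell surface receptor gene of early mesoderm and neural tissue, were among them, at log2 2.99 and 2.12 on day 9 against day 0.

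The groups followed different courses when set against day 0, as medians of log2 CPM. For the 16 risen 2-cell genes the median was -2.33 on day 9, -2.68 on day 12 and -0.68 on day 18, so the day 18 median stayed below that of day 0. For the 10 risen primitive endoderm genes it was -0.54, 0.00 and 1.45, and for the 5 risen germline genes -0.67, -0.67 and 0.82. For the 3 fallen mesenchymal genes it was 0.98, 0.71 and -0.22. Since the members were picked by their change after day 12, these courses are a description. Day 18 against day 0, which shares the day 18 libraries, gave log2 values of -0.35 for Zscan4c (adjusted p = 0.538) and -1.02 for Gm21304 (0.142), against 3.06 for Cubn (7.18e-05), 2.45 for Dab2 (7.18e-05), 1.97 for Lama1 (3.09e-06) and 1.19 for Stra8 (0.0282). In that comparison 74 of all 20612 tested genes were higher on day 18 (0.359%) and 32 lower (0.155%). None of the 52 tested 2-cell genes passed in either direction (0 higher, 0 lower), with a median log2 value of -0.59, and 10 of 28 primitive endoderm genes were higher.

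**Figure D4:**
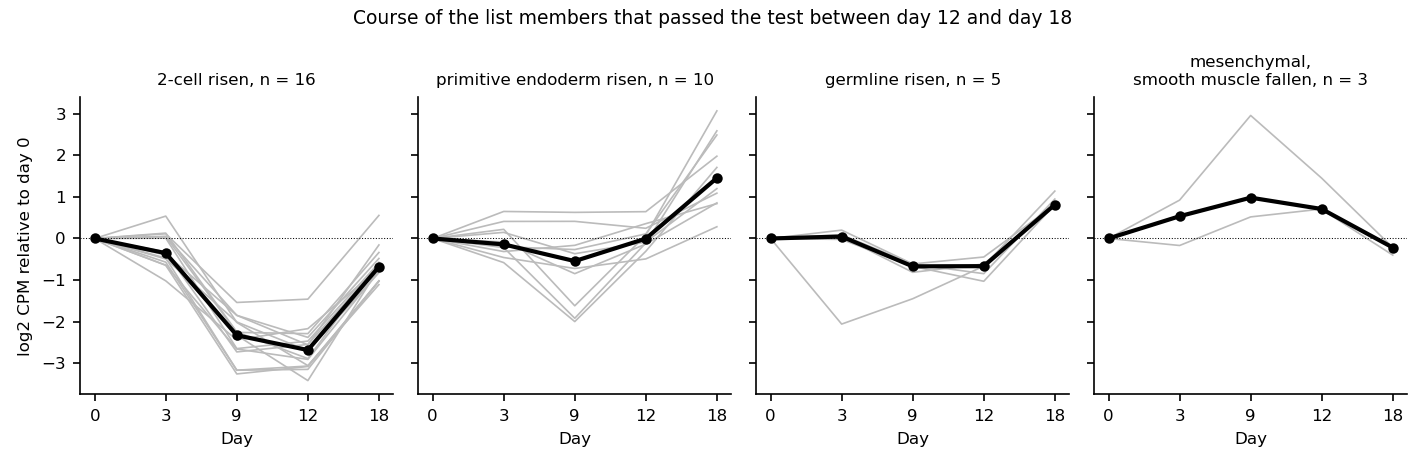
Thin lines are single genes and thick lines their median, as mean log2 CPM of 2 libraries relative to day 0 (y axis) on days 0 to 18 (x axis, days equally spaced). The 2-cell median is -2.68 on day 12 and -0.68 on day 18, below day 0, and the primitive endoderm median ends at 1.45, above it.

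Whether a gene's change after day 12 differed from that between day 9 and day 12 was tested as (day 18 - day 12) - (day 12 - day 9). A value above 0 can come from a rise after day 12 or from a fall before it. It was above 0 for 36 of 20612 genes (0.175%) and below 0 for 30 (0.146%). Both changes share the day 12 libraries. Of the 2-cell genes, 0 of 52 passed this test in either direction, although the steps of Zscan4c were -0.02 before and 1.98 after day 12 (difference 2.01, SE 0.437, adjusted p = 0.0784). A later change of the 2-cell genes is thus not shown by the test of the difference. Among the primitive endoderm genes 3 passed with a difference above 0. They were Dab2 (2.01, adjusted p = 0.0373), Lama1 (1.32, adjusted p = 0.0185) and Lrp2 (1.55, adjusted p = 0.00445). For Dab2 and Lama1 the log2 change was 0.38 and 0.02 before day 12 and 2.39 and 1.33 after it. Lrp2 did not pass day 18 against day 12, so its difference is not read as a later rise. Smc1b passed (2.16, adjusted p = 0.0272) and Stra8 did not (1.07, adjusted p = 0.334).

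For Ctsl, Zic2, Mxd4, Slc22a23 and Tbc1d9 the same test passed with differences of 1.81, 1.31, 2.33, 3.00 and 1.98. Each had a log2 value below 0 between day 9 and day 12, in the same order -0.80, -0.33, -0.87, -1.52 and -1.14. After day 12 the values were 1.01, 0.98, 1.45, 1.48 and 0.84. For Slc22a23 and Tbc1d9 the fall before day 12 was thus the larger step. Differences below 0 were found for Nipsnap2 (-3.29, adjusted p = 7.45e-06), Lgals3 (-2.87, adjusted p = 4.75e-05), Dapp1 (-2.23, adjusted p = 0.0467), Adamts7 (-1.87, adjusted p = 0.0272) and Ccn2 (-1.10, adjusted p = 0.0377). Lgals3 had 129 and 109 counts on day 9, 1060 and 1345 on day 12 and 1442 and 2579 on day 18, so its larger step came before day 12. Ctbp2 itself gave a difference of 2.88 (adjusted p = 7.75e-06), from its steep fall between day 9 and day 12. In day 18 against day 12 with 1 library left out, Tbc1d9 and Dapp1 kept their call in 0 of 4 fits, with adjusted p up to 0.38 and 0.315, and Mxd4, Slc22a23 and Adamts7 in 1 of 4.

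The same genes were then read in the genotype table, which shares no library with the time course. There 3115 of 21193 tested genes were higher in CtbpDKO than in WT (14.7%) and 2407 lower (11.4%). Of the 132 risen genes 130 were tested, and 86 (66.2%) were higher in CtbpDKO and 13 (10.0%) lower. Their median log2 value there was 1.48. The 86 are 2.76% of the 3115. Of the 37 fallen genes 4 (10.8%) were higher in CtbpDKO and 16 (43.2%) lower.

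Loss of Dux on top of the Ctbp knockout went with both directions. In Ctbp-Dux TKO against CtbpDKO, 764 genes were higher (3.6%) and 963 lower (4.54%). Of the 130 risen genes tested, 36 (27.7%) were lower in the Ctbp-Dux TKO and 35 (26.9%) higher. The 2-cell genes were on the lower side: Zscan4c had 323 and 476 counts in CtbpDKO and 3 and 0 in the Ctbp-Dux TKO (adjusted p = 0.000163), and 36 of 50 tested 2-cell genes were lower there. Of the primitive endoderm genes, 0 of 29 tested were lower in the Ctbp-Dux TKO, and 11 of 29 were higher in CtbpDKO than in WT, Col4a1 (log2 1.58) and Col4a2 (1.19) among them. Cubn did not pass the test in CtbpDKO against WT (log2 -0.15, adjusted p = 0.782) and was higher in the Ctbp-Dux TKO than in CtbpDKO (log2 2.90, adjusted p = 0.000186). Dab2, Lama1 and Srgn were higher there as well, by 2.16, 1.94 and 2.58 on the log2 scale (adjusted p = 1.98e-05, 8.93e-07 and 0.0023), with values against WT of -0.04, -0.15 and -0.18 in CtbpDKO (adjusted p = 0.909, 0.383 and 0.807). In these CtbpDKO libraries Cubn stood at 13.8 and 17.3 CPM of all counts, Dab2 at 15.2 and 19.6 and Lama1 at 89.2 and 93.4. Day 0 of the time course, of the same genotype, had means of 3.91, 6.29 and 34.6 CPM of scaled library size. Cubn, Dab2 and Lama1 thus also differed between the tables at the same genotype, and the cause was not tested.

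Germline genes divided. Stra8 was higher in CtbpDKO than in WT by 3.64 and lower in the Ctbp-Dux TKO than in CtbpDKO by a log2 value of -1.91 (adjusted p = 2.43e-08 and 4.18e-05). Smc1b was higher in CtbpDKO by 1.85 (adjusted p = 4.46e-05), with a value of 0.50 in the Ctbp-Dux TKO that did not pass (adjusted p = 0.167). Tuba3a was higher in both steps, by 1.35 and 0.50 (adjusted p = 2.75e-06 and 0.0188). The Ctbp-Dux TKO and CtbpDKO libraries differ by 1 further knockout, and since the labels name no clones, the knockout and a difference between clones cannot be told apart.

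**Figure D5:**
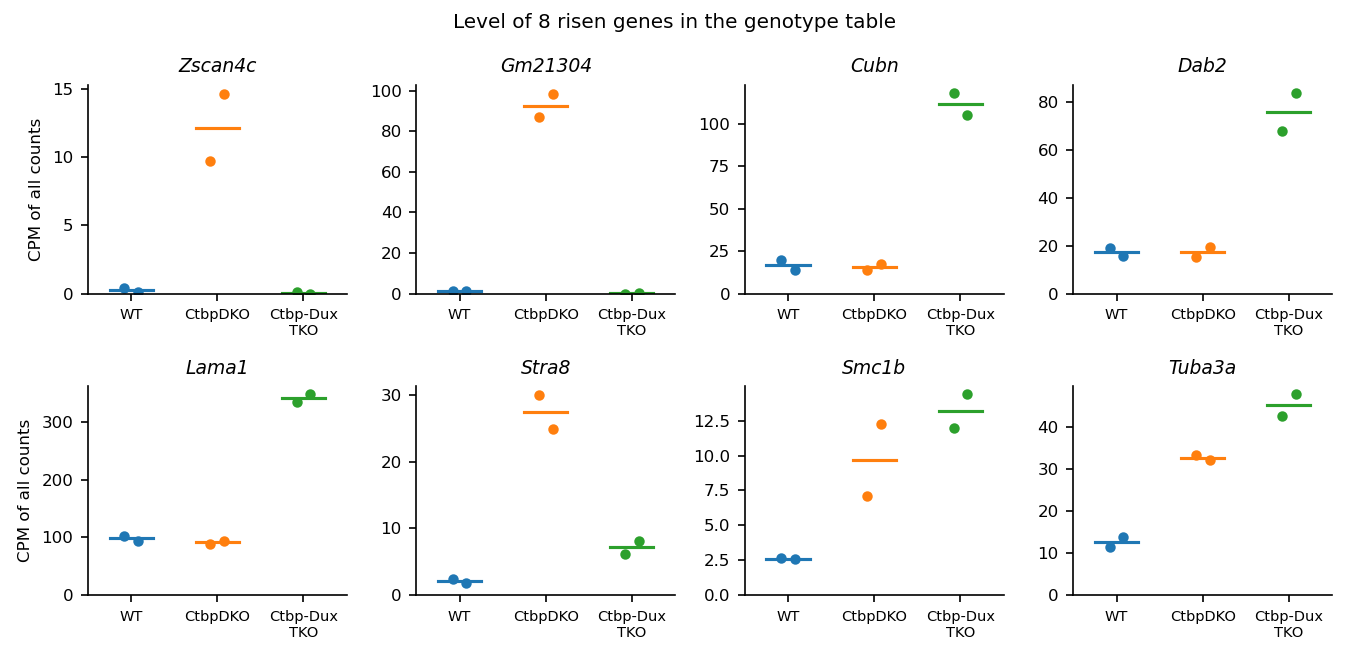
The level of 8 risen genes (y axis, CPM of all counts, from 0) is drawn for the 2 libraries each of WT, CtbpDKO and Ctbp-Dux TKO cells, with bars for the mean. Zscan4c and Gm21304 are high in CtbpDKO alone of these 3 groups, while Cubn, Dab2 and Lama1 are high in the Ctbp-Dux TKO.

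Some of the called genes lay close together. Of 164 called genes with a position in the RefSeq table for GRCm38.p6, 27 neighbouring pairs lay within 100 kb of each other, and 26 of the 27 moved in the same direction. The same count over all tested genes was not made. Since 132 of the 169 called genes rose, pairs would often share a direction without any link. Many are copies of 1 family, such as the Zscan4 genes on chromosome 7 and the 5 chromosome 10 genes shown above, and 3 pairs overlap, so that reads may be shared. Pairs of unlike genes included Fgf4 and Bc1 on chromosome 7, 49225 bases apart, and Catsperz and Kcnk4 on chromosome 19, 282 bases apart, with log2 values of 2.09 and 1.31. The Lefty pair lay 35915 bases apart. The 1 pair that moved in opposite directions was Slc22a23 and Gm6129 on chromosome 13.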

How the data were processed

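The authors deposited counts per gene symbol, 1 column per library and with no normalization per the file headers. Libraries were made with a Collibri stranded kit from PureLink RNA, per the labels' protocols. The submitters' processing notes name Trim Galore, HISAT2, featureCounts and mm10, and settings, versions and annotation are not given in the sources used here. Total counts of the time course ran from 16674526 to 30169626, and 0 columns were left unmatched. In the 10 libraries, 26 symbols turned into dates held at most 0.099% of the counts and structural RNA genes 4.96% to 7.77%. CT010467.1, a clone-named feature, held 0.93% and 0.786% of the counts on day 12 and 0.426% and 0.55% on day 18. Libraries of a day differed beyond sampling noise, with a chi-square per gene from 14.3 to 26.7, so none is a copy.

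From the counts, edgeR 4.0.16 in R 4.3.3 tested 20612 of 55276 genes (filterByExpr, TMM factors from 0.915 to 1.1, quasi-likelihood F test). All 10 libraries shared 1 fit with group as its term, and the 12 libraries of the genotype table another fit of 21193 genes. P-values were adjusted by Benjamini-Hochberg, and an adjusted p under 0.05 passed. Fold changes use a prior count of 0.125. Groups of 2 libraries each allow no exact test of a single value below 0.05, which is why the spread was shared across genes and groups. In simulated data, 72% of genes changed 2-fold and 99% of those changed 4-fold were recovered in day 18 against day 12, over 19846 genes, with 15 false calls of 186. The changed genes were drawn only from those with a mean above 2 CPM, so recovery at lower levels was not measured.

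The members and lists were chosen with earlier results of these data known, and lists are described without a test. Named genes were the targeted genes and 14 fixed genes; the 12 called genes per direction with the largest change, libraries that do not overlap, a mean of at least 50 counts on the higher day and no predicted-gene symbol; up to 4 called members of each list; and up to 6 per direction by the difference of the 2 changes. Genes named beyond this rule are members of the lists, neighbours or carriers of a searched motif, chosen after their values were seen. Reads carry no stated molecular identifiers, so counting error is not that of molecules. Alternatives are given in the closing section.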

Additional observations from a re-analysis of the deposited data

Results flagged for a closer look

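For 66 genes the change after day 12 differed from the change between day 9 and day 12 in the test of the difference itself, 36 with a value above 0 and 30 below. Pole2 is 1 of them through 1 library: it had 2535 counts in day 12 replicate 1 and between 133 and 257 in each other library (difference -6.86, adjusted p = 0.0337, edgeR quasi-likelihood test), and it did not pass day 18 against day 12 (adjusted p = 0.0714). With 1 library left out the 66 became 7 without day 12 replicate 1, 11 without day 12 replicate 2, 15 without day 18 replicate 1 and 243 without day 18 replicate 2. Both changes share the day 12 libraries.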

How the results depend on the processing

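Among the named genes that passed the test, none changed sign under the alternatives run. Some that did not pass did: without day 18 replicate 1, Pramel7 went from -0.07 to 0.25, Uhrf1 from -0.03 to 0.11 and Dppa3 from 0.02 to -0.11, and the values of Dnmt1 and Pou5f1, near 0, changed sign as well. The 169 genes called between day 12 and day 18 (132 higher, 37 lower) became 267 with DESeq2 1.42.0 (191 and 76), 652 with no low count filter (444 and 208), 89 with a log2 minimum of 1 (75 and 14) and 60 when days 12 and 18 were fitted alone (51 and 9). Upper quartile factors gave 162, DESeq2 size factors 169, a filter of 1 CPM in 2 libraries 166, the fit without structural RNA genes 168 and, added after the data were seen, that without CT010467.1 as well 167. Leaving out 1 library gave 38 to 213 (27 to 156 higher, 9 to 57 lower). The lone library left in a day is then assumed to vary like the other groups.

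The 66 genes of the difference of the changes became 183 with DESeq2, 500 with no low count filter and 7 to 243 with 1 library left out. The 16 risen 2-cell genes became 27 with no low count filter, 6 with days 12 and 18 alone and 1 to 12 with 1 library left out. The 10 risen primitive endoderm genes became 6 with the log2 minimum and 6 to 8 with 1 library left out. The 5 risen germline genes became 4 or 5 with 1 library left out. The 3 fallen mesenchymal genes became 5 with no low count filter and 1 with days 12 and 18 alone. With a log2 minimum of 1 in both comparisons, the share of risen genes lower on day 9 went from 62.9% to 61.3% and the share higher in CtbpDKO from 66.2% to 71.2%.

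Replicate numbers are shared between days. The deviations of libraries with the same number had correlations from -0.204 to 0.0916 over the pairs of days (0.0916 for days 12 and 18, 12174 genes). Low correlations cannot exclude that libraries of the same number shared a culture or batch, which the labels do not say. With the replicate number as a block, 112 genes were called between day 12 and day 18 (92 higher, 20 lower), 14 of the 2-cell, 8 of the primitive endoderm and 4 of the germline genes rose, 4 mesenchymal genes fell, and the difference of the changes had 29. Of the 61 named genes tested, 49 had a call to lose. It was lost by 12 under the block, 10 under the log2 minimum and 30 with days 12 and 18 alone. Upper quartile factors and the 1 CPM filter cost 2 each and DESeq2 0. Calls were also lost with 1 library left out, as given above. The causes of these shifts were not tested. Low counts, as those of Duxf3, limit what this depth can detect.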
